A study of Mus musculus with 24 samples.

Results

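High-fat feeding was compared with chow in the epididymal white adipose tissue (eWAT) of floxed control mice, using every library that the labels give as wild type (floxed), which is 12 of the 24 libraries of the series. The 6 chow-fed Lama4 fl/fl mice ate a breeder chow, diet 5015, and the 6 HFD-fed Lama4 fl/fl mice ate a high-fat diet (HFD) with 45% fat, each for 20 weeks before the fat pads were taken. The study's figure legends give chow from weaning until 24 weeks of age, and HFD from 6 weeks of age until a later harvest. Age at the start of the diet and age at harvest therefore cannot be told apart from diet. All mice were adult males of the line labelled LFKO, and the tissue is labelled gWAT, for gonadal white adipose tissue, with epididymal pads named in the protocol. Both groups carried loxP sites in Lama4, the gene of the laminin α4 chain, and no Cre, so neither group shows how mice without the floxed allele respond to the diet. The other 12 libraries came from Lama4 AKO mice, in which Cre under the adiponectin promoter deletes part of Lama4 in adipocytes. They entered the model only to share its estimate of the spread, and their diet response is set beside that of the fl/fl mice at the end. Libraries are named here by diet and replicate number, chow 1 to chow 6 and HFD 1 to HFD 6, and each number is 1 mouse.

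eWAT is a visceral depot. Its adipocytes store triglyceride and secrete hormones such as leptin and adiponectin, and between them lie capillaries, progenitor cells, mesothelium and immune cells. During prolonged high-fat feeding adipocytes in this depot are known to enlarge and die, macrophages gather around them and take up their lipid, mast cells and lymphocytes accumulate, and synthesis of fatty acids from sugar usually declines. These are statements of background, and the sections that follow give what was measured.

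The 12 fl/fl libraries held between 10195574 and 18764516 counts in genes, and 16332 to 16674 of the 16730 genes in the table had a count in a library. Values are given in CPM, counts relative to the library's total after scaling with TMM factors. Where a library has no count of a gene, up to 3 counts remain possible from counting error alone. Fat markers were abundant in every library: Adipoq, the gene of adiponectin, lay between 826 and 7902 CPM. The markers of the macrophage, B cell, T cell, endothelial, progenitor, mesothelial and erythrocyte lists were also read in both groups. Of the epididymis genes, Crisp1 and Defb20 were not in the table, and Lcn5 and Adam7 did not pass the filter on low values. In chow 4, however, Lcn5 had 233 counts and Adam7 73, against at most 8 and 4 in the other chow-fed libraries. Both had 0 counts in every HFD-fed library. Whether pads carried epididymis was not tested. The libraries stood apart from each other in ways the diet does not describe. Chow 1, HFD 4 and HFD 6 had the highest levels of the adipocyte list and the lowest of both macrophage lists, pan-macrophage and lipid-associated. HFD 1 and HFD 2 had the lowest adipocyte levels. The highest levels were in HFD 1 and chow 3 for the pan-macrophage list, and in HFD 2 and chow 2 for the lipid-associated list. A single library also carried a transcript otherwise read in the other genotype: Gm28586, a sense intronic transcript on chromosome 9 that was noticed after its values were seen, had between 6 and 50 counts in each AKO library and 0 in each fl/fl library except HFD 2, where it had 33 counts. At 2.03 CPM it lay in HFD 2 within the range of the HFD-fed AKO libraries, 1.52 to 4.11 CPM. Whether HFD 2 holds RNA of an AKO mouse was not tested, and the number of calls and the medians of the main lists are therefore also given without it. Lama4 itself (ENSMUSG00000019846, chr10:38965515-39110188, forward strand) lay between 41.2 and 196 CPM in the chow-fed and between 32.4 and 135 CPM in the HFD-fed fl/fl libraries, and its log2 fold change with diet was -0.25 with a standard error (SE) of 0.34 (edgeR, adjusted p = 0.853). The deposited counts do not resolve exons, so Lama4 gives no check of the floxed allele.

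Few genes separated the diets when all 12 mice were used. Calls required a change of 1.5-fold or more in either direction, an unadjusted p no higher than 0.001 in edgeR's quasi-likelihood test, and a group mean of 2 CPM or more on the higher diet. These are the criteria in the study's methods, and 22 of the called genes would also pass a minimum mean of 2 on the log2 CPM scale. Of 15020 genes tested, 26 were called, which is 0.173%, with 16 higher in HFD-fed mice (0.107%) and 10 lower (0.0666%). None had an adjusted p (Benjamini-Hochberg over all genes tested) of at most 0.05, and the lowest adjusted p was 0.239. At an unadjusted p under 0.05 there were 1354 genes (9.01%), 825 of them higher (5.49%) and 529 lower (3.52%), and DESeq2 on the same counts gave 27 genes at an adjusted p of at most 0.05. The balance of directions at that unadjusted p depended on the fit. It turned in some: limma-voom gave 611 higher and 706 lower, a weight per library 716 and 823, and a weight per group 383 and 403. The fit without HFD 3, 4 and 6 gave 2309 and 2807. More genes were higher in others: DESeq2 gave 1094 higher and 506 lower, RLE size factors 966 and 441, and no filter on low counts 979 and 513. With only the 12 fl/fl libraries there were 660 and 210. The 6 and 6 libraries did not overlap for 32 genes (0.213%), 15 of them higher (0.0999%) and 17 lower (0.113%), and 10 of the called genes were among them. That share is close to the smallest exact permutation p of the design, 0.00216, so lack of overlap sets no gene apart here and is given below only as a description. Without HFD 2, edgeR called 37 genes, 20 of them the same as with all mice. The called genes were, in order of p, Snord118, Snord13, Plxnd1, Ubqln4, mt-Co1, Gm15987, Ddit4l, Atn1, Kit, Zfp385a, Vac14, mt-Tt, Snai2, Foxk2, Cck, Josd2, Zbtb7b, Jpx, Espn, Yipf3, Cad, Aif1l, Cirbp, Gm26244, Tbca and Cadm3. For each of the 26 an exact two-sided permutation test over the 6 and 6 libraries gave p between 0.00216, the smallest that this design allows, and 0.0238. All 26 kept their direction when any 1 library was left out, and Snord118, Snord13, Plxnd1, Ubqln4, mt-Co1, Gm15987, Ddit4l, Atn1 and Kit were called in each of the 12 fits without 1 library. The 26 were picked by their p in these same libraries. The small permutation p-values and the kept directions follow in large part from that choice and are given as a description.

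**Figure D1:**
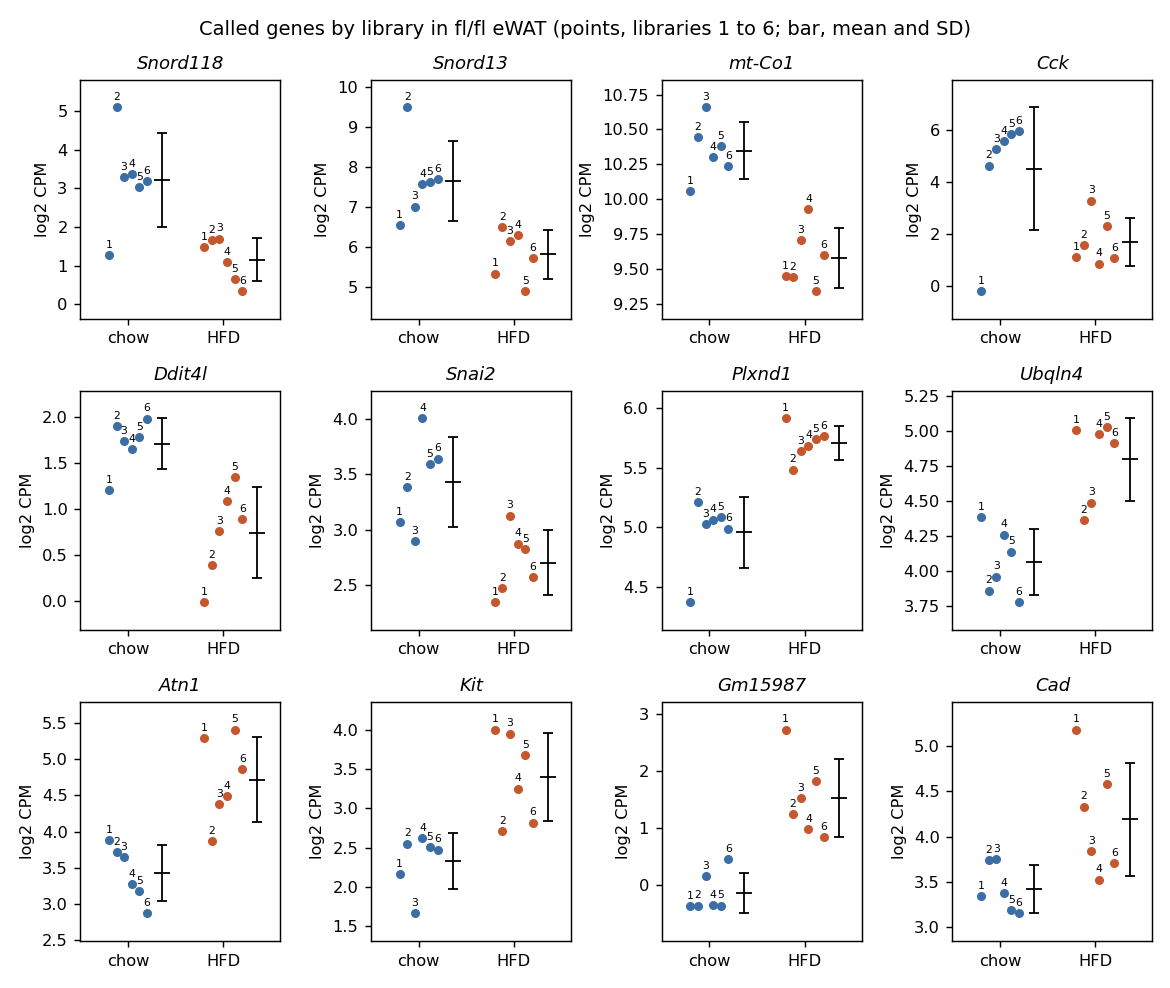
Level of 12 of the 26 called genes in each fl/fl library, as log2 CPM on the vertical axis, with chow-fed mice in blue and HFD-fed mice in orange, numbered by replicate; the bar gives the mean and SD of 6 libraries. The libraries of Snord13, mt-Co1, Plxnd1, Kit and Gm15987 do not overlap between diets, and Cck in chow 1, at -0.20 log2 CPM, lies below every HFD-fed library.

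Small nucleolar RNAs, short nuclear RNAs that guide the processing and chemical modification of ribosomal RNA, had the lowest p-values. Those of the C/D class carry a C box near the 5′ end and a D box near the 3′ end, where the core proteins bind. Snord118, the U8 RNA needed to mature the RNAs of the large ribosomal subunit, lies at chr11:69073427-69073561 on the forward strand of GRCm38, and Snord13, or U13, is the other member called. The GENCODE transcripts of Snord118 and of 3 further C/D members at an unadjusted p under 0.05 are printed 5′ to 3′ as DNA because these short RNAs were among the lower members of the snoRNA list, with the first TGATGA of each (the C box letters) and the last CTGA (the D box letters) in capitals. Snord89 lies at chr1:39548745-39548854 and Snord87 at chr1:9942463-9942549, both on the reverse strand, and Snord104 at chr11:106500993-106501062 on the forward strand.
Snord118: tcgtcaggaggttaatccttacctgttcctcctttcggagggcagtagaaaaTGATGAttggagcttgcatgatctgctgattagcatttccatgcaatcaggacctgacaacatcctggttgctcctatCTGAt
Snord89: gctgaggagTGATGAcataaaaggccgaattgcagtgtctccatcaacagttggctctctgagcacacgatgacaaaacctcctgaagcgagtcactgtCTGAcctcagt
Snord87: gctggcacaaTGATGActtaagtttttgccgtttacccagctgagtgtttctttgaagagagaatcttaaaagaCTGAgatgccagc
Snord104: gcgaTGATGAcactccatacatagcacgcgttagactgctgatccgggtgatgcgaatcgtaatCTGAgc
Each of the 4 held 1 TGATGA, from base 53 in Snord118, 10 in Snord89, 11 in Snord87 and 5 in Snord104. A QuantSeq library is primed on poly(A), which mature snoRNAs lack, so the reads of these genes are not a measure of all their molecules.

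Snord13 lay between 93.0 and 721 CPM in the chow-fed mice, with a median of 193, and between 29.6 and 90.4 CPM in the HFD-fed mice, with a median of 61.6. No HFD-fed library reached the lowest chow-fed one. The log2 fold change was -2.09 (SE 0.41; edgeR, adjusted p = 0.239). Snord118 ranged from 2.27 to 34.1 CPM on chow (median 9.29) and from 1.11 to 3.10 CPM on HFD (median 2.31), and only chow 1 fell among the HFD-fed libraries. Its log2 fold change was -2.46 (SE 0.46; edgeR, adjusted p = 0.239), and it was -1.82 in the fit that gave the smallest change without 1 library. Chow 2 held the highest value of both RNAs. Of 26 snoRNAs in the count table, 13 passed the filter on low values. Many of these lay near it, with a mean level of 0.95 to 2.69 log2 CPM on chow and 0.04 to 1.10 on HFD. All 13 had a log2 fold change under 0, with a median of -0.99 beside -0.01 for all genes tested. At an unadjusted p under 0.05, 6 of the 13 were lower, where 3.52% of all genes were. Beside Snord118 and Snord13 these were Snord104, Snora57, Snord89 and Snord87. Snord89 showed another order of the libraries: it was at 1.73 CPM in chow 3, 0.904 in HFD 1 and 0.739 in HFD 5, and between 19.4 and 176 CPM in the other 9. Without HFD 3, 4 and 6 the median of the 13 was -1.72, and without chow 1 it was -1.04.

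Transcripts of the mitochondrial genome were lower in part. mt-Co1, which encodes a catalytic subunit of cytochrome c oxidase, lay between 1067 and 1616 CPM on chow (median 1298) and between 648 and 974 CPM on HFD (median 735), without overlap. The log2 fold change was -0.77 (SE 0.17; edgeR, adjusted p = 0.293). mt-Tt, the mitochondrial threonine tRNA, was lower by -1.30 (SE 0.31; edgeR, adjusted p = 0.301), with chow 1 among the HFD-fed libraries. Of the 8 mitochondrially encoded mRNAs tested, only mt-Co1 was called, mt-Nd6 was lower at an unadjusted p of 0.0184, and the median log2 fold change was -0.25. mt-Nd4, the most abundant of them, spanned 25524 to 53039 CPM on chow and 28983 to 55752 CPM on HFD, a range shared by the diets. Reads of mt-Nd6, which is encoded on the strand opposite to most mitochondrial genes, cannot be told from antisense reads of its neighbours, because the use of strand in counting is not given in the sources used here.

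Cck had the largest change among the called genes. It encodes cholecystokinin, a peptide hormone of gut and brain. In eWAT of 5 chow-fed mice it lay between 24.5 and 61.9 CPM, and in chow 1 it was at 0.722 CPM, from 7 counts. The HFD-fed mice lay between 1.66 and 9.52 CPM with a median of 2.41, so that all 6 were below 5 of the 6 chow-fed mice and above chow 1. The log2 fold change was -3.35 (SE 0.80; edgeR, adjusted p = 0.307; exact permutation p = 0.0238), and it was called in 8 of the 12 fits without 1 library.

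The other genes called lower were Ddit4l, a stress-induced inhibitor of mTOR signalling, Snai2, a zinc finger repressor of the Snail family known from mesenchymal progenitors, Cirbp, a cold-inducible RNA-binding protein, Tbca, a tubulin folding cofactor, and Jpx, a noncoding RNA of the X inactivation centre. Ddit4l lay between 2.16 and 3.81 CPM on chow and between 0.844 and 2.40 CPM on HFD, with HFD 5 alone above the lowest chow-fed library (log2 fold change -0.98, SE 0.22). Snai2 lay between 7.29 and 15.9 CPM on chow and between 4.94 and 8.59 CPM on HFD, overlapping in chow 1, chow 3 and HFD 3 (-0.77, SE 0.18). Cirbp did not overlap: it was at least 23.9 CPM on chow and at most 22.5 CPM on HFD (-0.71, SE 0.18). Those bounds lie close together, and chow 3 and chow 6, at 42.6 and 44.7 CPM, were the highest. Jpx did not overlap either, with 2.34 to 3.40 CPM on chow and 1.11 to 2.13 CPM on HFD (-0.84, SE 0.21). It overlaps Ftx on the opposite strand, whose log2 fold change was -0.18.

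The 16 genes called higher changed between 1.51-fold and 3.87-fold. Plxnd1, a semaphorin receptor of endothelium and other cells (chr6:115954811-115995005, reverse strand), lay between 20.6 and 37.0 CPM on chow (median 32.9) and between 44.5 and 59.95 CPM on HFD (median 52.2). The groups did not overlap, and the spread of the HFD-fed libraries was small beside the difference (log2 fold change 0.72, SE 0.15; edgeR, adjusted p = 0.239). Ubqln4, a shuttle factor of the proteasome, lay between 13.6 and 20.7 CPM on chow and between 20.4 and 32.5 CPM on HFD (0.75, SE 0.16; edgeR, adjusted p = 0.293). Only HFD 2, at 20.4 CPM, entered the range of the chow-fed mice. Atn1, a transcriptional corepressor, lay between 7.16 and 14.6 CPM on chow and between 14.4 and 42.4 CPM on HFD (1.36, SE 0.31), with HFD 1 and HFD 5 highest and HFD 2 again the only library to overlap. Atn1 shares its place with Gm45234 on the same strand, so its reads could belong to either model.

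Cad, the enzyme that starts pyrimidine synthesis, had a log2 fold change of 0.87 (SE 0.22), and HFD 1, at 36.1 CPM, was the highest library. Zbtb7b, a zinc finger factor of T cells and of brown fat, was higher by 0.59 (SE 0.15) on the log2 scale, Foxk2, a forkhead factor of metabolic genes, by 0.71 (SE 0.17), and Zfp385a, a zinc finger protein of adipocyte differentiation, by 0.64 (SE 0.15). Zfp385a and Josd2, a deubiquitinase at 0.63 (SE 0.15), did not overlap between diets, while Vac14, a scaffold of the kinase that makes an endosomal phosphoinositide (0.63, SE 0.14), Yipf3, a Golgi protein (0.78, SE 0.20), and Cadm3, a cell adhesion molecule (0.63, SE 0.17), did overlap. Espn and Aif1l, both binders of actin, went opposite ways across the HFD-fed libraries. Espn (1.25, SE 0.31) was highest in HFD 1 and HFD 5, at 9.16 and 7.14 CPM, and in HFD 6 lay at 1.71 CPM, inside the chow range of 1.65 to 2.75. Aif1l (1.42, SE 0.36) was highest in HFD 4 and HFD 6, at 17.1 and 20.0 CPM, against 2.71 to 7.94 CPM on chow. Gm15987, an antisense model overlapping Clec2g, rose from a chow range of 0.619 to 1.22 CPM to 1.63 to 6.45 CPM on HFD (1.95, SE 0.43). Gm26244, a small nuclear RNA model inside Rock1 on the same strand, rose from at most 1.14 CPM to at least 1.26 CPM (1.17, SE 0.30), and Rock1 itself had a log2 fold change of -0.22. Chow levels of these last models lay near 1 CPM, close to the filter on low values.

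Mast cells are tissue-resident immune cells filled with proteases and histamine, and 1 gene of the mast cell list was called. Kit, the receptor of stem cell factor that mast cells need to survive, was called: it lay between 3.005 and 5.99 CPM on chow (median 5.46) and between 6.39 and 15.97 CPM on HFD (median 11.0), without overlap (log2 fold change 1.15, SE 0.26; edgeR, adjusted p = 0.293). All 11 mast cell genes of the list had a log2 fold change above 0, with a median of 1.52 beside -0.01 for all genes tested, and 9 of the 11 had an unadjusted p under 0.05, where 5.49% of all genes were higher at that p. Only Kit passed the criteria for a call. The proteases followed another order of libraries than Kit. Tpsb2, a mast cell tryptase, lay between 23.4 and 183 CPM on chow, and in the HFD-fed mice it was at 937, 785 and 418 CPM in HFD 1, 2 and 5, at 197 CPM in HFD 3, and at 21.5 and 15.9 CPM in HFD 4 and 6. The first 3 lay above every chow-fed mouse, and the last 2 lay below every chow-fed mouse. Its log2 fold change was 2.31 (SE 0.80; edgeR, adjusted p = 0.448; exact permutation p = 0.260). The chymases Mcpt4 (2.26, SE 0.81) and Cma1 (1.86, SE 0.76), the carboxypeptidase Cpa3 (1.52, SE 0.77), Tpsab1 (2.11, SE 0.75), Hdc, which makes histamine (1.48, SE 0.50), and Slc6a4, the serotonin transporter (1.43, SE 0.44), had their highest values in HFD 1 or HFD 2 and values at or below the chow median in HFD 4 and HFD 6. Without HFD 3, 4 and 6 the median of the list was 2.30 and 7 members were called, and without HFD 1 the fit gave the lowest median of the 12 fits without 1 library, 1.11. Without HFD 2 it was 1.45. In these bulk samples fewer cells of a type and less RNA per cell cannot be told apart.

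The promoters of 3 proteases that moved together across libraries are shown for their context. Each window runs from 250 bases before the annotated start to 50 bases after it, taken from RefSeq on GRCm38.p6 and printed 5′ to 3′ on the gene's strand, all 3 on the reverse strand. Capitals mark GATAA or, for the other strand, TTATC, the core letters bound by GATA factors, of which Gata2 (log2 fold change 0.56, SE 0.24) is in the mast cell list. Cpa3 is at chr3:20242132-20242431, Cma1 at chr14:55944626-55944925 and Mcpt4 at chr14:56062261-56062560.
Cpa3: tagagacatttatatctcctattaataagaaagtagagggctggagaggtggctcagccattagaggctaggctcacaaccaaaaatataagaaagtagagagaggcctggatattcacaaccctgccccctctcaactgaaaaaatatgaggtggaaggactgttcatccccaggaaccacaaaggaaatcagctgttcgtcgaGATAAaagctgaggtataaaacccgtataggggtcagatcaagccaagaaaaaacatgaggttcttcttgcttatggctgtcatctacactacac
Cma1: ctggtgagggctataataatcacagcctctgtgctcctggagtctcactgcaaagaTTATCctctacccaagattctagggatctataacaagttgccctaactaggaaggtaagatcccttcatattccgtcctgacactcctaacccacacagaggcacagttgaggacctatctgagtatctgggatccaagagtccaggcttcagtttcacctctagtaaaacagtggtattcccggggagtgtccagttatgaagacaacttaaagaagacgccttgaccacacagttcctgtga
Mcpt4: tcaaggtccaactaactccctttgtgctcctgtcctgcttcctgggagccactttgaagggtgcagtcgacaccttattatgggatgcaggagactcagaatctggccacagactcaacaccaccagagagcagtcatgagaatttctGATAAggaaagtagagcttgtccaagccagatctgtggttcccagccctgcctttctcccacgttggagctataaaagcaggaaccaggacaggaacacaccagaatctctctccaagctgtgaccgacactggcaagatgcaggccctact
Of 27025 promoter windows of that length, 25.8% held GATAA or TTATC, and of the 9 mast cell genes with an entry 5 did, which were Cma1, Cpa3, Fcer1a, Mcpt4 and Ms4a2. A match of these letters is a description of the sequence and was not tested as a site.

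**Figure D2:**
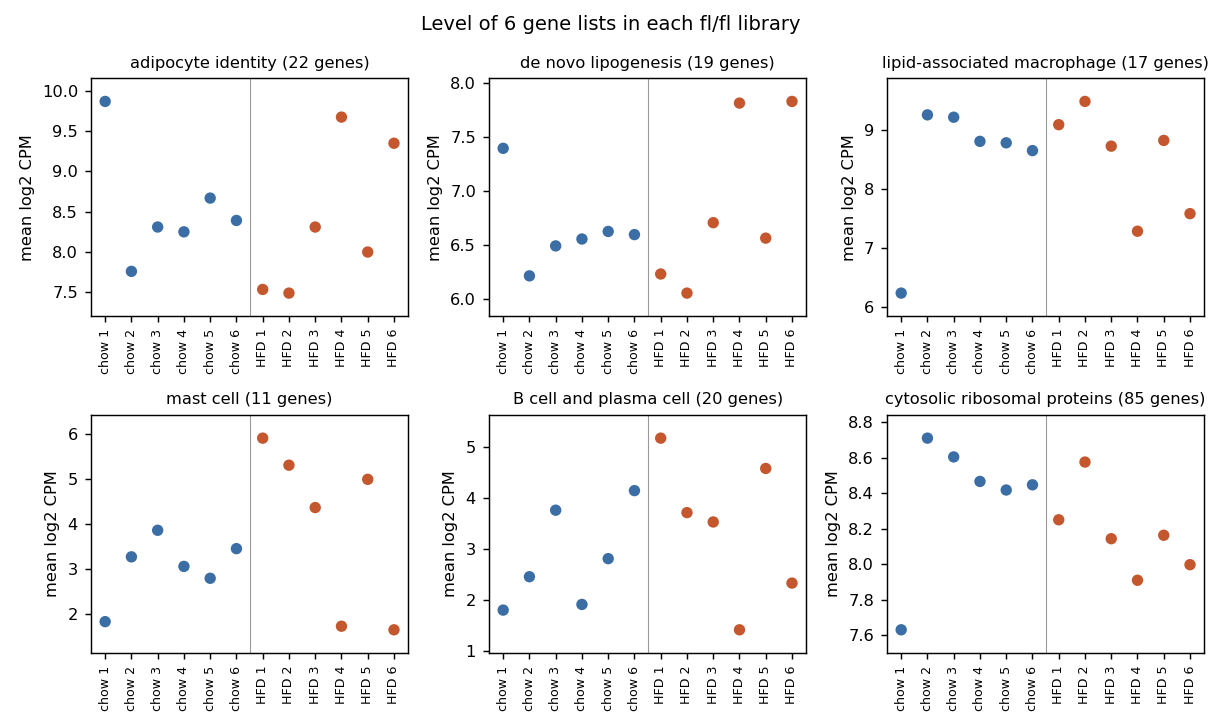
Mean log2 CPM of the tested members of 6 gene lists (vertical axis) in each of the 12 fl/fl libraries (horizontal axis), chow in blue and HFD in orange. Chow 1, HFD 4 and HFD 6 have the highest adipocyte levels, 9.87, 9.67 and 9.35, and the lowest levels of the macrophage list, while the mast cell list spans 1.66 to 5.91 within the HFD-fed group.

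Lymphocyte genes leaned the same way with fewer members past the threshold. Of 20 B cell and plasma cell genes, 18 had a log2 fold change above 0, the median was 1.07, and Blk and Spib were higher at an unadjusted p under 0.05. Of 20 T and NK cell genes, 17 were above 0, the median was 0.70, and Trac and Foxp3 passed that p. In each list 2 of 20 genes were higher at that p, where 5.49% of all genes were, too few to show an excess. Foxp3, with means of 0.378 CPM on chow and 1.37 on HFD, and Blk, with 0.711 and 1.98, lay near the filter on low values. Without HFD 1 the list medians were 0.48 for B cells and 0.27 for T and NK cells. Spib, a factor of B cells and plasmacytoid dendritic cells, was at 17.8 CPM in HFD 1 and 15.1 CPM in HFD 5, and between 0.316 and 4.79 CPM in the other 4 HFD-fed mice and 0.412 and 4.48 CPM on chow. Genes that antibody-secreting cells use had the largest spread of all. They were 7 of the 10 genes with the largest SD among the HFD-fed libraries, at a mean of at least 10 CPM. The 7 were the immunoglobulin genes Ighg2b, Ighg1, Iglc1, Ighg3 and Ighg2c, with Mzb1 and Jchain. Ighg2b lay between 0.237 CPM in HFD 4 and 526 CPM in HFD 1, and its log2 fold change of 2.36 had an SE of 1.16 (edgeR, adjusted p = 0.557). Fabp1 and Ttr, genes best known from liver, were also among the 10. Their high values fell in the same mice of both diets: Ttr was at 54.1 CPM in chow 3, 63.9 in chow 5, 80.5 in HFD 3 and 11.1 in HFD 5, and at most 9.75 CPM in the other 8.

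Neutrophil genes lay lower in part. S100a8, a calcium-binding alarmin of neutrophils and monocytes, was between 167 and 267 CPM in 5 chow-fed mice and at 17.1 CPM in chow 1, and between 45.0 and 85.9 CPM on HFD. The log2 fold change was -1.73 (SE 0.48; edgeR, unadjusted p = 0.00131, adjusted p = 0.433; exact permutation p = 0.0606), so it did not pass the criteria. S100a9 was lower at an unadjusted p of 0.0352, and of the 7 neutrophil genes tested 5 were below 0, with a median of -0.36 that lay between -1.26 without HFD 1 and -0.18 without HFD 5. Of 28 cytokines and chemokines, Ccl22 was higher and Il10, Cxcl1 and Cxcl12 were lower at an unadjusted p under 0.05, with a median of -0.02.

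No gene of the macrophage lists or of the list known to rise in diet-induced obesity was called. Macrophage genes were as high in most chow-fed mice as in HFD-fed ones. The level of 17 genes of lipid-associated macrophages, the mean log2 CPM of the list, was 8.65 to 9.25 in chow 2 to chow 6 and 6.24 in chow 1, and on HFD it was 8.72 to 9.48 in HFD 1, 2, 3 and 5 and 7.28 and 7.58 in HFD 4 and 6. Trem2, a lipid receptor of these cells, lay between 16.9 and 422 CPM on chow (median 281) and between 53.3 and 574 CPM on HFD (median 292), with a log2 fold change of 0.04 (SE 0.59; edgeR, adjusted p = 0.990). Itgax, which encodes CD11c, had 0.20 (SE 0.52), Cd68 0.09 (SE 0.52) and Ccl2, a chemokine that draws monocytes, 0.14 (SE 0.42). Gpnmb, a lysosomal glycoprotein of these macrophages, had 0.9996 (SE 0.71; edgeR, adjusted p = 0.689), with 6912, 5033 and 4008 CPM in HFD 1, 2 and 5 against 133 to 2818 CPM on chow. None of 19 genes chosen as known to rise in diet-induced obesity was called or had an unadjusted p under 0.05, and their median log2 fold change was 0.09. It was -0.06 without chow 1, 0.24 without HFD 3, 4 and 6, and 0.40 without chow 3 as well. For the lipid-associated macrophage list the median was -0.04 with all mice, 0.49 without those 3 and 0.72 without chow 3 as well, and for the pan-macrophage and monocyte list it was 0.08, 0.56 and 0.80.

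Adipocyte genes varied more between mice than between diets. Lep, the gene of leptin, lay between 574 and 1718 CPM on chow (median 1406) and between 267 and 3296 CPM on HFD (median 1199), so the HFD-fed mice lay on both sides of all chow-fed mice (log2 fold change 0.28, SE 0.49; edgeR, adjusted p = 0.891). Mest, a marker of fat expansion, had -0.01 (SE 0.41), and Adipoq -0.32 (SE 0.50). Of 22 adipocyte identity genes none had an unadjusted p under 0.05, and the median was -0.04. The direction of this median turned with single libraries, since it was 0.30 without chow 1 and -0.31 without HFD 4. With HFD 3, 4 and 6 left out together it was -1.07. For de novo lipogenesis, the pathway that makes fatty acids from acetyl-CoA, 16 of 19 genes were above 0 with a median of 0.35 (-0.39 without HFD 3, 4 and 6), and Scd2, Aacs, Tkt and G6pdx were higher at an unadjusted p under 0.05. Scd2, a fatty acid desaturase, was at 440 and 594 CPM in HFD 4 and HFD 6 and between 80.8 and 162 CPM in the other 4, against 89.6 to 139 CPM on chow. Its log2 fold change was 1.12 (SE 0.41; edgeR, adjusted p = 0.448) and -0.06 without HFD 3, 4 and 6. Tkt, transketolase of the pentose phosphate pathway, had its highest values in other mice, 341, 299 and 268 CPM in HFD 1, 2 and 5, against 122.8 to 221 CPM on chow (0.55, SE 0.19).

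Stromal and matrix genes were higher in small numbers. Of 21 progenitor genes, 6 were higher at an unadjusted p under 0.05, where 5.49% of all genes were, and none lower. The median was 0.20, between 0.07 without HFD 1 and 0.34 without chow 3. They were Pi16 and Cd34, surface markers of fat progenitors, the matrix genes Fn1 and Fbn1, and the ligands Bmp7 and Wnt2. Wnt2 lay between 0.739 and 1.92 CPM on chow and between 1.63 and 4.48 CPM on HFD (log2 fold change 0.97, SE 0.30; exact permutation p = 0.00866). Of 29 genes of fibrillar and collagen VI matrix, Col6a1, Col6a2, Fn1 and Fbn1 were higher at that p, with a median of 0.01 for the list. Col6a1 lay between 133 and 182 CPM on chow and between 175 and 277 CPM on HFD (0.54, SE 0.18; exact permutation p = 0.00649). The third chain of the same collagen, Col6a3, had 0.09 (SE 0.22). Among endothelial genes Eng and Robo4 were higher at an unadjusted p under 0.05, in a list of 22 with a median of 0.03.

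Genes of ribosomes and of the respiratory chain lay slightly lower. Of 85 cytosolic ribosomal protein genes, 66 had a log2 fold change below 0, with a median of -0.26, and 13 were lower and 0 higher at an unadjusted p under 0.05. The largest was Rpl35 at -0.79 (SE 0.27; edgeR, adjusted p = 0.448). Chow 1 stood below every other library, at a mean log2 CPM of 7.63 against 8.42 to 8.71 in chow 2 to 6 and 7.91 to 8.58 on HFD. Without chow 1 the median was -0.36 and 33 of the genes passed that p as lower, whereas without HFD 3, 4 and 6 it was -0.13 with 7 lower and 8 higher. In AKO mice the median was 0.41. Of 82 nuclear-encoded subunits of the respiratory chain, 65 were below 0, the median was -0.21, and 7 were lower and 1 higher at that p, where 3.52% of all genes were lower. Without chow 1 it was 17 lower and 4 higher, and without HFD 3, 4 and 6 25 lower and 8 higher. The epididymis and testis list had 1 gene tested, Cuzd1, which lay between 0 and 4.53 CPM on chow and had a count in only HFD 1 among the HFD-fed mice. The remaining lists, among them sterol synthesis, triglyceride metabolism, branched-chain amino acid catabolism, beta-oxidation, thermogenic genes, interferon response, unfolded protein response, clock, proliferation and lysosome, had medians between -0.24 and 0.32 and at most 3 members past that p in either direction. Most ribosomal protein genes have near-identical processed copies elsewhere in the genome, so the share of their reads that was counted is uncertain.

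**Figure D3:**
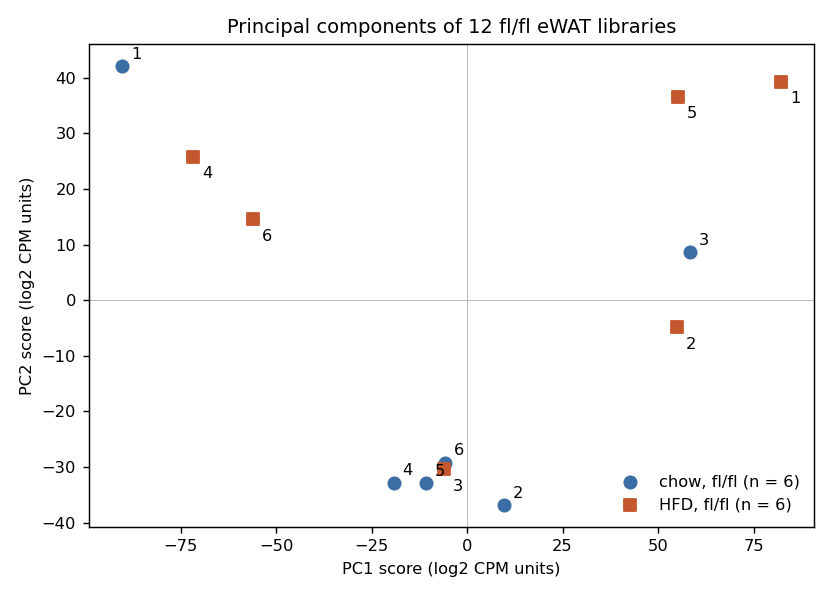
Scores of the 12 fl/fl libraries on the first 2 principal components of log2 CPM (horizontal and vertical axis), chow as blue circles and HFD as orange squares, numbered by replicate. HFD-fed libraries run from -71.7 to 82.3 on the first component and chow-fed ones from -90.4 to 58.3, with the diets mixed along it.

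Libraries of the same diet differed widely. The first principal component carried 48.1% of the variance among the 12 libraries, against 15.8% for the second. The difference between the diet means made up 7.86% of the total variance and 3.44% of that along the first component. A split of the 12 libraries without regard to diet also takes up some share. That share was not computed, so neither value shows a diet effect. On the first component HFD 1, 2 and 5 scored 82.3, 55.0 and 55.2, and HFD 4 and 6 scored -71.7 and -56.1. HFD 3, at -6.03, lay beside chow 4, 5 and 6. The chow-fed group was not tight either, since chow 1 scored -90.4 and chow 3 58.3. The median over genes of the SD of log2 CPM was 0.492 in the HFD-fed and 0.391 in the chow-fed group, and 9984 genes (66.5%) had the larger SD on HFD. Without chow 1 the chow median was 0.298, and without chow 1 and 3 it was 0.207. Correlations of log2 CPM ran from 0.867 to 0.984 between HFD-fed libraries and from 0.837 to 0.981 between diets, and the closest neighbour of chow 1 was HFD 4 (0.975). Adipocyte and macrophage levels moved with the first component: the 3 libraries with the lowest scores had adipocyte levels of 9.87, 9.67 and 9.35 and lipid-associated macrophage levels of 6.24, 7.28 and 7.58. Their part in the diet contrast was not tested.

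How many genes were called depended on which mice were used. With HFD 3, 4 and 6 left out, 792 of 14943 genes were called (5.30%), 445 higher (2.98%) and 347 lower (2.32%), and 2547 had an adjusted p of at most 0.05. With chow 3 left out as well, 1655 of 14896 were called (11.1%). These sets of libraries were chosen by their expression, so the p-values after leaving them out are not independent of the choice and are given only to show the dependence. The median size of the log2 fold change of the 792 genes was 1.06 in that fit and 0.51 with all 12 mice, which include the same libraries. Over all genes the median absolute log2 fold change was 0.20 with all mice and 0.42 without HFD 3, 4 and 6. Of the 26 called genes, 20 were also called without those 3 mice. Adipokines and adipocyte identity genes changed most between these choices, with list medians of -0.02 and -0.04 with all mice and -1.11 and -1.07 without those 3. Leaving out 1 HFD-fed mouse at a time gave 14 genes without HFD 1, 37 without HFD 2, 57 without HFD 3, 45 without HFD 4, 17 without HFD 5 and 50 without HFD 6. Leaving out 1 chow-fed mouse gave 63 genes without chow 1, 41 without chow 3 and 16 to 21 for each of the other 4. Without HFD 2 the list medians were -1.05 for snoRNAs, 1.15 for B cells, 0.69 for T and NK cells, -0.28 for neutrophils, 0.14 for progenitors, 0.49 for de novo lipogenesis, 0.05 for adipocyte identity, -0.32 for lipid-associated macrophages, -0.37 for cytosolic ribosomal proteins and -0.20 for respiratory chain subunits. In the same fit they were -0.03 for pan-macrophage and monocyte genes, 0.03 for genes known to rise in diet-induced obesity and -0.14 for mitochondrially encoded mRNAs. Cytokines and chemokines had -0.08 and endothelial genes 0.097.

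**Figure D4:**
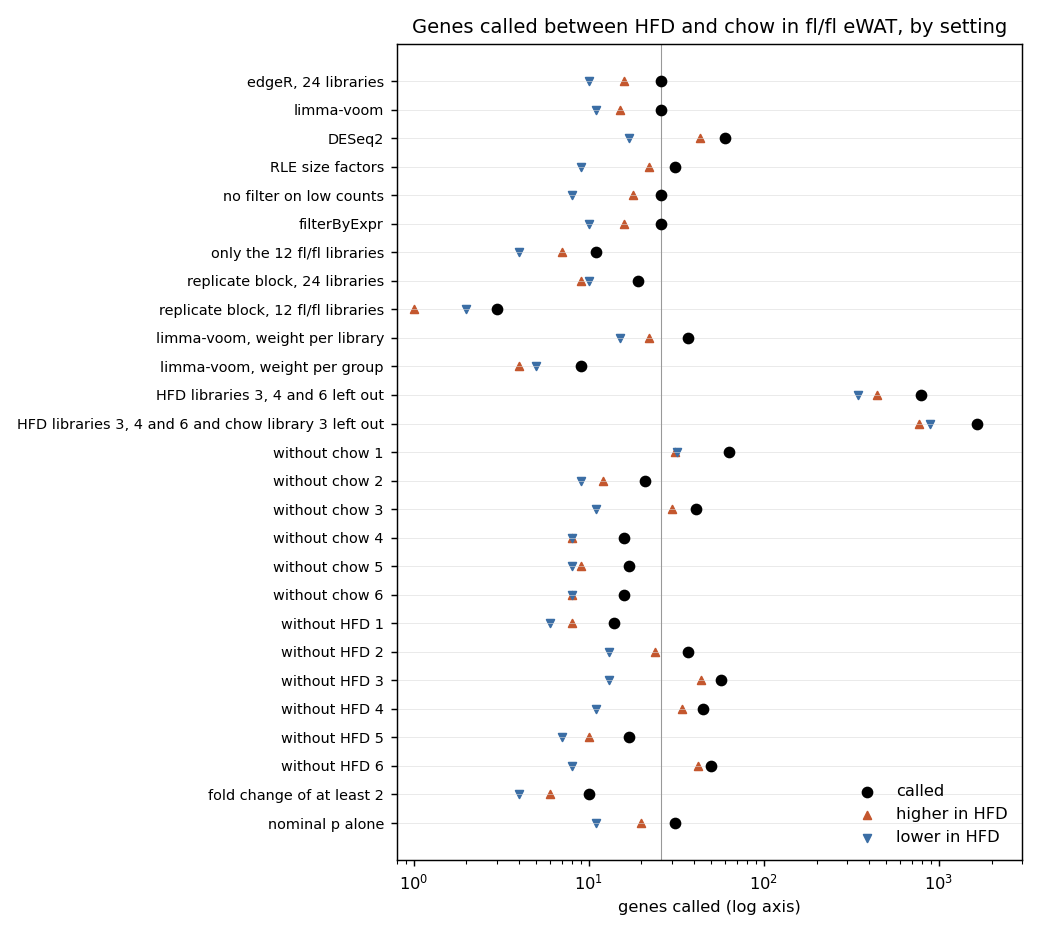
Number of genes called between HFD and chow in fl/fl eWAT (horizontal axis, logarithmic) under each setting (vertical axis), with all calls as black dots, higher calls as triangles pointing up and lower calls as triangles pointing down; the grey line marks the 26 genes of the fit with all libraries. The counts plotted lie between 3 and 63 where at least 11 of the 12 mice are kept, and at 792 and 1655 once HFD 3, 4 and 6 are left out; the adjusted p criterion, which called 0, has no point.

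More genes were called between diets in the 12 AKO mice than in the 12 fl/fl mice under the same model, though fewer than the 792 in fl/fl mice without HFD 3, 4 and 6. In the AKO mice 619 genes were called (4.12%), 194 higher (1.29%) and 425 lower (2.83%), and across the 15020 genes the correlation of the diet log2 fold changes of the genotypes was 0.372, a description in which genes are not independent. Of the 26 genes called in fl/fl mice, 18 had the same sign in AKO mice and 8 the opposite one. Cck was called in both with the same sign, -3.35 in fl/fl and -2.99 in AKO mice (SE 0.79). Ubqln4 was called in both with opposite signs, 0.75 and -0.62, and it was the only one of the 26 whose difference between genotypes had an adjusted p of at most 0.05 (-1.36; edgeR, adjusted p = 0.0499). Plxnd1 had 0.72 in fl/fl and -0.35 in AKO mice, a difference of -1.08 (edgeR, unadjusted p = 2.45e-05, adjusted p = 0.123). Over all genes 58 differences (0.386%) met the criteria for a call. Mast cell genes were higher in AKO mice too, with a list median of 3.36 and 9 of 11 members called, and no difference between genotypes was resolved for Tpsb2 (adjusted p = 0.615) or Mcpt4 (adjusted p = 0.549). De novo lipogenesis had a median of -1.08 in AKO mice beside 0.35 in fl/fl mice. Scd2 had -1.37 in AKO and 1.12 in fl/fl mice, a difference of -2.49.

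**Figure D5:**
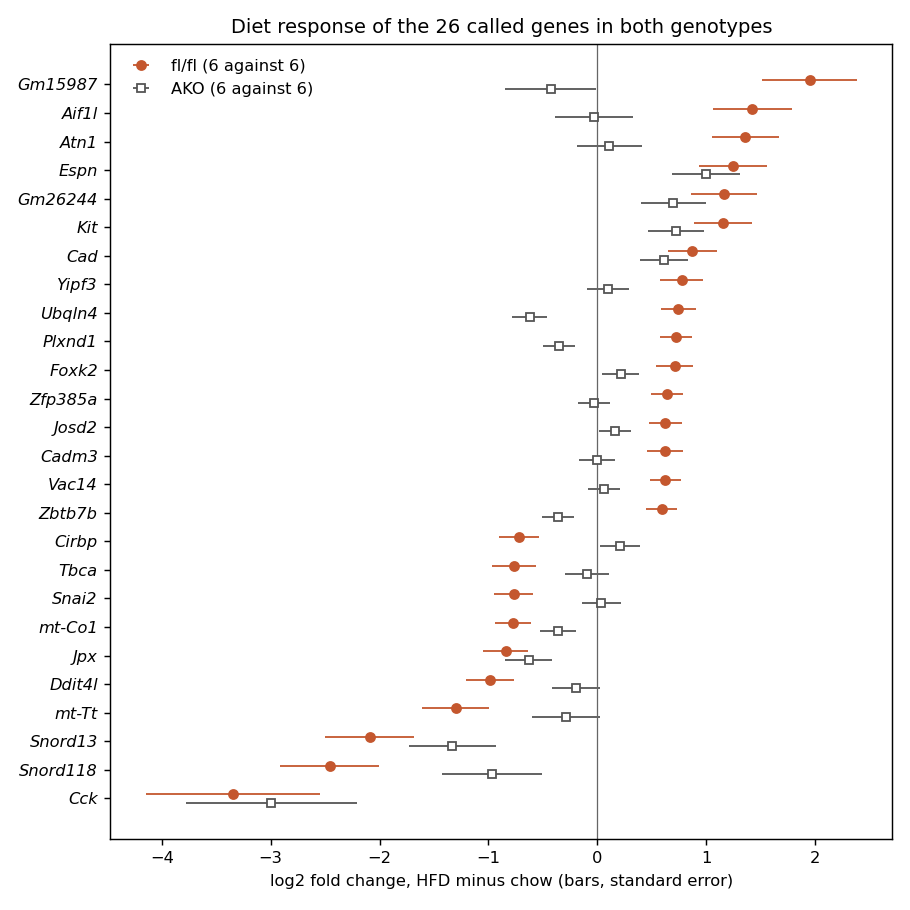
Log2 fold change between HFD and chow (horizontal axis, bars give the SE) of the 26 genes called in fl/fl mice, ordered by that value, in fl/fl mice as orange circles and AKO mice as open squares, 6 mice against 6 in each. Cck, Snord13, Snord118, Jpx, Espn and Kit lie on the same side of 0 in both genotypes, while Ubqln4, Plxnd1, Zbtb7b and Gm15987 lie on opposite sides.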

How the data were processed

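RNA of eWAT from single mice was sequenced with Lexogen QuantSeq, which reads the 3′ end of polyadenylated RNA (50 bp forward reads). The authors made raw counts per gene with the Lexogen pipeline on Bluebee and deposited these counts without normalization, on GRCm38 per the labels. Use of strand and of reads that map to several places is not given in the sources used here. The labels also name DESeq2 1.30 in R 4.0.3, used for a second deposited table of normalized values that was not analysed here. The count table holds 16730 genes, none with fewer than 72 counts over the 24 libraries, and 16683 matched GENCODE M21, which gave symbols and positions.

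The analysis used edgeR 4.0.16 under R 4.3.3. A gene was kept where 3 or more libraries reached 1 CPM, scaling used TMM factors, and the counts entered a quasi-likelihood model of 1 coefficient per group over all 24 libraries. The study fitted limma-voom after setting libraries aside; here all were kept, and limma 3.58.1, DESeq2 1.42.0, other filters and left-out libraries were alternatives. Log2 CPM used a prior count of 2. Single genes were also compared with exact two-sided permutation tests in Python 3.11.15. The model code was tested on simulated counts with known changes. Samples were grouped by title, and each is taken as 1 mouse; p-values measure the spread between these mice. Genes named are all called genes, a list of 22 adipose genes, the 2 members with the lowest p of each of 40 lists, the 10 genes with the largest SD on HFD at a mean of at least 10 CPM, and the 10 largest changes without overlap; other members named in the text were chosen after their values were seen. The members and lists were chosen with earlier results of these data known. Lists are described by counts and medians only. For 1 gene named by this rule and 1 transcript sequence, the result is not reported here.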

Additional observations from a re-analysis of the deposited data

Results flagged for a closer look

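In 30 of 268 groups of 6 libraries examined for the named genes (11.2%, where chance gives about 1 in 20), the highest or lowest library lay far from the rest by Dixon's criterion at 95%. Chow 1 was that library in 19 of them, chow 3 and HFD 2 in 3 each, and chow 2, chow 5, HFD 1, HFD 3 and HFD 6 in 1 each. The values that follow are log2 CPM. In chow 1 the macrophage genes were low, with Itgax at 4.40, Trem2 at 4.09, Gpnmb at 7.05, Cd68 at 6.37, Adgre1 at 5.37, Spp1 at 0.85 and Cd14 at 4.15. Low there too were Plxnd1 at 4.38, Cck at -0.20, Ccl2 at 3.19, Col6a3 at 7.56, S100a8 at 4.11 and Bub1b at 1.27. High in chow 1 were Cadm3 at 3.20, Scd1 at 13.56, Sfrp5 at 8.84, Pik3ca at 6.54, Irs3 at 5.11 and Per2 at 4.96. Chow 3 was low for Fabp4 at 13.62 and high for Atf4 at 8.38 and Psmd3 at 8.10. HFD 2 was low for Lss at 3.49 and Col4a1 at 9.06 and high for Wnt2 at 2.21. Single values stood apart for Edem1 in chow 2 at 6.33, Gm26244 in chow 5 at -0.48, Cuzd1 in HFD 1 at -2.25, S100a8 in HFD 3 at 6.43 and mt-Tt in HFD 6 at 0.89.

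For 6 named genes the diet response of the AKO mice differed from that of the fl/fl mice at an unadjusted p of at most 0.001 in edgeR's test of the difference. The differences, AKO minus fl/fl on the log2 scale, were -1.08 for Plxnd1, -1.36 for Ubqln4, -2.38 for Gm15987, -0.95 for Zbtb7b, -1.04 for Tkt and -2.49 for Scd2. Of these, Ubqln4 had an adjusted p of 0.0499 and the other 5 had adjusted p-values above that threshold.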

How the results depend on the processing

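Of 26 genes called with all libraries (16 higher, 10 lower), the count stayed within 1.5 times under limma-voom, RLE size factors, either other filter, a weight per library and nominal p alone. It was 60 under DESeq2 (43 higher, 17 lower), 11 with only the 12 fl/fl libraries (7 and 4), 9 with a weight per group (4 and 5), 10 at a fold change of at least 2 (6 and 4) and 0, with 0 higher and 0 lower, at an adjusted p of at most 0.05. Without HFD 3, 4 and 6 it was 792 (445 and 347), and without chow 3 as well 1655 (769 and 886). Without any 1 library it lay between 14 and 63, with 8 to 44 higher and 6 to 32 lower. With the replicate number as a block it was 19 over 24 libraries (9 higher, 10 lower) and 3 over the 12 fl/fl libraries (1 and 2). The numbers do not pair mice: correlations of the deviations of same-numbered libraries were -0.483, 0.307, -0.342, 0.101, -0.0712 and -0.104, and 1 of the 6 pairs was the closest for its number. Why these counts moved was not tested, apart from the libraries and spread each setting keeps. No called gene changed sign under any of these settings. For the called genes, 429 values kept direction and call and 195 kept direction only; for genes not called, 2426 stayed, 110 moved by more than 1 SD and 51 met the criteria. With 6 mice a side and the spread given above, a difference that missed the criteria is not shown to be absent.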
